A study of Danio rerio with 3 samples.

Results

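Zebrafish embryos (Danio rerio, Tuebingen strain) that had received 6 ng of a morpholino against hnrnpaba were compared with embryos that had received 3 ng of a standard control morpholino. Morpholinos are antisense oligomers that bind a chosen transcript and block its translation or its splicing. Injection was at the 1-cell stage, and whole embryos were collected 24 hours post fertilization and pooled, 30 to a library. The 6 ng group and the control group had 1 library each, 2 of the 3 libraries of the series, and the remaining library came from embryos given 3 ng of the hnrnpaba morpholino. The injected mass thus differed together with the target, and the effects of mass and target cannot be told apart in this comparison. With 1 library a side there is no replicate check and no p-value, and every difference describes these pools. The control column was matched to its library because it is the 1 control of the series, since its header gives neither a morpholino nor a dose.

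The values are FPKM (fragments scaled by gene length and by library depth). The library totals inferred from them were 13557636 fragments at 6 ng and 14589056 in the control. Of 25961 genes, 16429 averaged 1 FPKM or more over the 3 libraries and were compared. Differences are log2 ratios of FPKM + 1, which understate the change of genes with low values, and in every count below, higher and lower mean a difference of 2-fold or more on that scale. A fold given for 1 gene is its ratio of FPKM without the added 1, with the 95% exact counting interval after it. The gene lists share members, so their counts are not independent of each other.

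The target, hnrnpaba, encodes an RNA-binding protein of the nucleus, 1 of the heterogeneous nuclear ribonucleoproteins (hnRNPs). Proteins of this family coat new transcripts and take part in their splicing, transport and stability, and HNRNPAB, the mammalian counterpart, is abundant in the developing nervous system. At the stage sampled a zebrafish embryo has a regionalised brain and spinal cord, somites in the trunk and a tailbud from which the last segments still form.

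The target transcript was measured first. hnrnpaba (ENSDARG00000007960, chromosome 14, 6962271 to 6968589, plus strand, in the coordinates of the deposited table, build not given in the sources used here) stood at 342 FPKM at 6 ng, against 442 FPKM in the control, a fold of 0.773 (0.755 to 0.793). Its paralog hnrnpabb stood at 215 FPKM at 6 ng and 242 FPKM in the control, a fold of 0.885 (0.862 to 0.908). Both were thus below the control by less than 2-fold at 6 ng. In the 3 ng library of the hnrnpaba morpholino, hnrnpaba stood at 459 FPKM and hnrnpabb at 244 FPKM. The difference of hnrnpaba at 6 ng was -0.37 on the log2 scale, near the median of -0.36 over 31 measured hnRNP genes. A fall particular to the target is therefore not shown. The level of a transcript does not measure its translation, and neither the sequence nor the mode of action of the morpholino was used here, so these values do not check the labels.

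At 6 ng 1032 of the genes compared were higher (6.28%) and 745 were lower (4.53%), which is 10.8% in either direction. The counts of each list below are to be read beside these shares. The 4-fold mark was passed upward by 171 of them and downward by 78, and the 8-fold mark by 40 and 10. The median difference over all genes compared was 0.082, with quartiles at -0.29 and 0.45. In the higher group, 62 genes had 0 fragments in the control, so a part of the higher counts rests on few control fragments. With the genes centred on others of similar length, there were 781 higher and 904 lower genes, and the share of higher genes among those called was then 46.4%, against 58.1% without it.

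**Figure D1:**
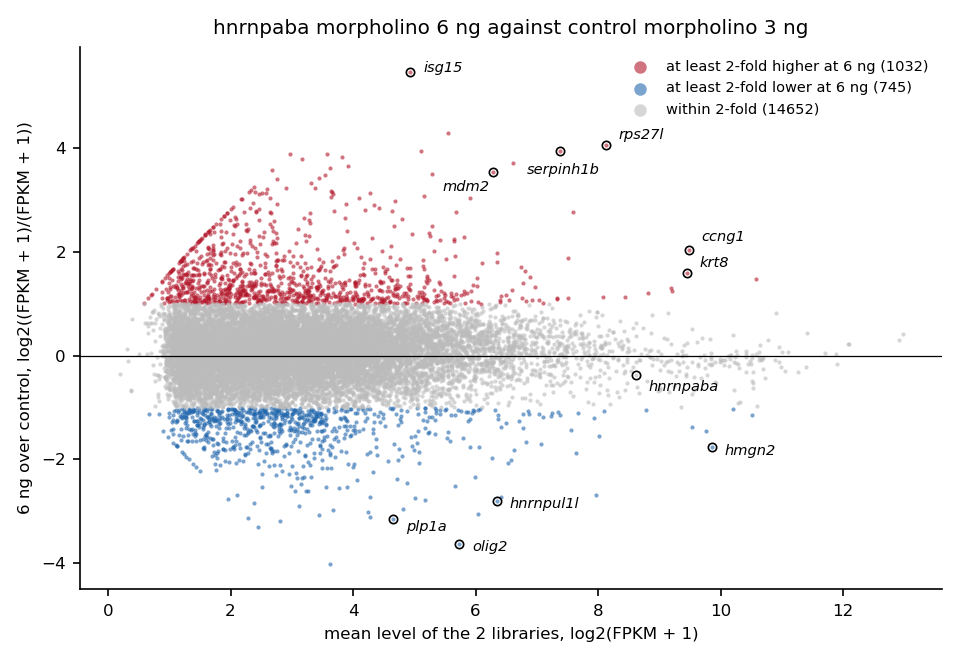
Difference between the 6 ng and control libraries (vertical axis, log2 ratio of FPKM + 1) against the mean level of each gene in both libraries (horizontal axis, log2 scale), 1 point per gene. Red points are the 1032 genes at least 2-fold higher at 6 ng, blue points the 745 at least 2-fold lower, and hnrnpaba itself lies within the grey band.

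Among genes with a symbol, the one farthest above the control was isg15, which encodes an interferon-induced ubiquitin-like protein. It stood at 59.0 FPKM at 6 ng and 0.360 FPKM in the control, a fold of 164 (74.9 to 447). After it came rn7sk, the small nuclear RNA that holds the elongation factor P-TEFb in reserve. rn7sk stood at 88.4 FPKM at 6 ng and 3.62 FPKM in the control, and how RNA was selected is unknown here. The immunoresponsive gene irg1l stood at 63.8 FPKM at 6 ng and 3.25 FPKM in the control, and cyp24a1, the enzyme that breaks down active vitamin D, at 21.7 FPKM at 6 ng and 0.874 FPKM in the control. Genes of several functions are therefore among the 15 highest. The secreted Wnt enhancer gene rspo1 stood at 8.47 FPKM at 6 ng and 0.0764 FPKM in the control, from 206 and 2 fragments, a fold of 111 (30.3 to 921). The precursor of the microRNA miR-21, mir21-1, stood at 20.4 FPKM at 6 ng and 0.926 FPKM in the control, from 41 and 2 fragments. The rest of the 15 highest were serpinh1b, cxcl18b, ppp6r2b, RNF14, cdkn2a/b, casp8 and the genes rps27l, mdm2 and phlda3 described next.

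Farthest below the control among genes with a symbol was olig2, a transcription factor of motor neuron and oligodendrocyte precursors, at 6.96 FPKM at 6 ng and 97.7 FPKM in the control. The other 14 lowest were 5 lens genes (crybb1l2, crygn2, mipa, crybb1l1 and cryba1b), 6 genes of neural or glial cells (plp1a, fabp7a, pou3f1, pou3f2b, prtgb and en2b), the melanin synthesis gene tyrp1b, the sodium pump subunit family gene atp1b4 and hnrnpul1l. hnrnpul1l, an hnRNP U-like gene, stood at 19.3 FPKM at 6 ng and 141 FPKM in the control, a fold of 0.137 (0.126 to 0.149). The 3 ng library of the hnrnpaba morpholino stood at 24.5 FPKM for hnrnpul1l and 42.8 FPKM for olig2.

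In the list of cyclins, CDK inhibitors and Myc family genes 6 of 43 measured members were higher and 1 lower. The cyclin G gene ccng1 was the most abundant member, at 1155 FPKM at 6 ng and 281 FPKM in the control, a fold of 4.11 (4.02 to 4.21). cdkn1a, which encodes the cell cycle inhibitor p21, stood at 42.4 FPKM at 6 ng and 5.29 FPKM in the control. The 1 lower member was cdkn3, with a fold of 0.414 (0.272 to 0.617).

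Among the 15 highest genes with a symbol were rps27l, a ribosomal protein S27-like gene, at 525 FPKM at 6 ng and 30.9 FPKM in the control, and the ubiquitin ligase gene mdm2, at 142 FPKM at 6 ng and 11.4 FPKM in the control. The Akt inhibitor gene phlda3 stood at 70.8 FPKM at 6 ng and 5.39 FPKM in the control. Each of these lay above the control by far more than its counting error. The 3 ng library stood at 91.7 FPKM for mdm2, 1219 FPKM for ccng1 and 413 FPKM for rps27l. Both hnrnpaba morpholino libraries are set against the same control library, so these are 2 readings of 1 baseline.

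Apoptosis is carried out by caspases, which are set off by death receptors or by the release of cytochrome c from mitochondria under control of the Bcl-2 family. In the list of caspases and Bcl-2 genes 7 of 38 measured members were higher and 0 lower (median 0.43). The higher share was 18.4%, against 6.28% over all genes compared. casp8, the caspase that death receptors activate, had a fold of 21.7 (15.7 to 30.7). Its adaptor gene fadd had a fold of 3.68 (2.78 to 4.92), and cflara, which encodes an inhibitor of the same step, a fold of 3.16 (2.37 to 4.26). On the mitochondrial side, bbc3 (Puma), which promotes cell death, lay above the control by 2.74 on the log2 scale, and baxa, the pore-forming Bax, had a fold of 2.29 (2.12 to 2.48). Cytochrome c, from cycsb, was the most abundant member at 477 FPKM at 6 ng and 308 FPKM in the control and lay within 2-fold.

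The NF-kB transcription factors act in inflammation and cell survival and are held in the cytoplasm by inhibitors of the IkB type, whose genes are themselves NF-kB targets. Among 39 measured genes of JAK-STAT and NF-kB signalling, 7 were higher and 0 lower (median 0.42). The higher share was 17.9%, against 6.28% over all genes compared. Among the 7 are the IkB genes nfkbib, nfkbie, nfkbiaa and nfkbiab. nfkbib stood at 79.6 FPKM at 6 ng and 20.3 FPKM in the control, and nfkbie at 26.4 FPKM at 6 ng and 7.54 FPKM in the control. nfkbiaa had a fold of 2.87 (2.16 to 3.87) and nfkbiab a fold of 2.32 (2.06 to 2.61). The subunit genes relb and nfkb2 had folds of 4.57 (3.74 to 5.63) and 2.80 (2.29 to 3.45). The remaining member, socs3a, a feedback inhibitor of cytokine signalling, stood at 2.17 FPKM at 6 ng and 0.567 FPKM in the control.

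Genes of injury, cytokines and chemokines had 11 of 29 measured members higher and 1 lower. They included the macrophage growth factor gene il34, at 5.83 FPKM at 6 ng and 1.01 FPKM in the control, and ptgs2a, an enzyme of prostaglandin synthesis, at 22.8 FPKM at 6 ng and 7.97 FPKM in the control. Cytokine genes such as il1b, il6 and cxcl8a did not reach the filter on low values. Of 48 macrophage and neutrophil genes in the table, 15 passed the filter. The 1 member past 2-fold was mmp9, which epithelial cells also use after wounding. It stood at 15.7 FPKM at 6 ng and 1.73 FPKM in the control. That was 6.67% of the macrophage and neutrophil genes measured, near the 6.28% higher over all genes. Defining markers of these cells were below the filter, with mpx at 0.530 FPKM at 6 ng and 0.402 FPKM in the control, lyz at 0.122 and 0.114 FPKM in those libraries, and mpeg1.1 and spi1b under 1 FPKM in both. The part of such cells in these values was not tested. In the list of interferon-stimulated genes 8 of 19 measured members were higher and 0 lower. Over all 48 genes of that list in the table the median was 0.42, against 0.91 over those that passed the filter, since a gene at 0 in the control passes only through the libraries where it is high. One of them was b2m, the light chain of major histocompatibility class I, at 15.8 FPKM at 6 ng and 1.87 FPKM in the control.

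Chaperones of the endoplasmic reticulum refold secreted proteins, and their genes are switched on together in the unfolded protein response. All 41 measured genes of this response were above the control at 6 ng (median 0.60). Only 4 of them (9.76%) passed 2-fold (hspa5, hsp90b1, dnajc3a and manf). Over all genes compared, 9208 of 16429 were above the control, 6.28% were higher and 4.53% lower. hspa5, the BiP chaperone, stood at 284 FPKM at 6 ng and 76.5 FPKM in the control. Genes of DNA damage sensing and repair had 45 of 58 measured members below the control, with 2 higher (3.45%), 1 lower (1.72%) and a median of -0.29. Heat shock chaperones had 14 of 42 measured members higher and 0 lower. Stress-inducible members were among the highest, with hsp70.3 at 36.5 FPKM at 6 ng and 4.27 FPKM in the control and dnajb1b at 39.0 FPKM at 6 ng and 8.25 FPKM in the control. The constitutive chaperone genes hspa8 and hsp90ab1, the most abundant of the list, lay below the control within 2-fold, with folds of 0.666 (0.658 to 0.674) and 0.748 (0.740 to 0.757). Genes of the ATF4 and amino acid response were split, with 4 of 35 higher (cebpb, atf5a, ddit4 and atf3), 1 lower and a median of 0.11. These counts are 11.4% and 2.86%. The lower one was phgdh, the first enzyme of serine synthesis, with a fold of 0.349 (0.318 to 0.382).

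Hox genes give body regions their identity along the head-to-tail axis, with low paralog numbers used toward the hindbrain and high numbers toward the tail. All 42 hox genes of the lists that are in the table passed the filter. Of 13 genes in paralog groups 1 to 4, 12 were below the control and 0 passed 2-fold (median -0.29). The 9 genes of groups 5 to 8 had 0 past 2-fold and a median of 0.11, or -0.06 with genes of like length centred. Of 20 genes in groups 9 to 13, 19 were above the control and 8 were higher (median 0.80). Medians of single groups lay between -0.50 and -0.17 in groups 1 to 4 and between 0.46 and 1.44 in groups 9 to 13. Head-side and tail-side hox genes thus lay on opposite sides of the control, with the groups between them mixed.

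hoxb13a stood at 14.3 FPKM at 6 ng and 3.69 FPKM in the control, a fold of 3.88 (2.92 to 5.21). hoxc12a stood at 54.2 FPKM at 6 ng and 19.2 FPKM in the control, and hoxd12a at 16.5 FPKM at 6 ng and 5.47 FPKM in the control. All 5 genes of group 13 and both of group 12 were past 2-fold. In the 3 ng library hoxb13a stood at 13.3 FPKM, hoxc12a at 44.3 FPKM and hoxd12a at 18.7 FPKM. At the other end of the series hoxb1b had a fold of 0.812 (0.729 to 0.904), and hoxa4a stood at 14.3 FPKM at 6 ng and 20.6 FPKM in the control. The 1 member of groups 9 to 13 below the control was hoxd9a, with a difference of -0.44 on the log2 scale. In a pool of whole embryos, fewer cells of a type and less RNA per cell cannot be told apart, here and for every tissue named below. Many genes named below are expressed in several tissues, whether or not this is said of them. The tissue behind a value was not tested.

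**Figure D2:**
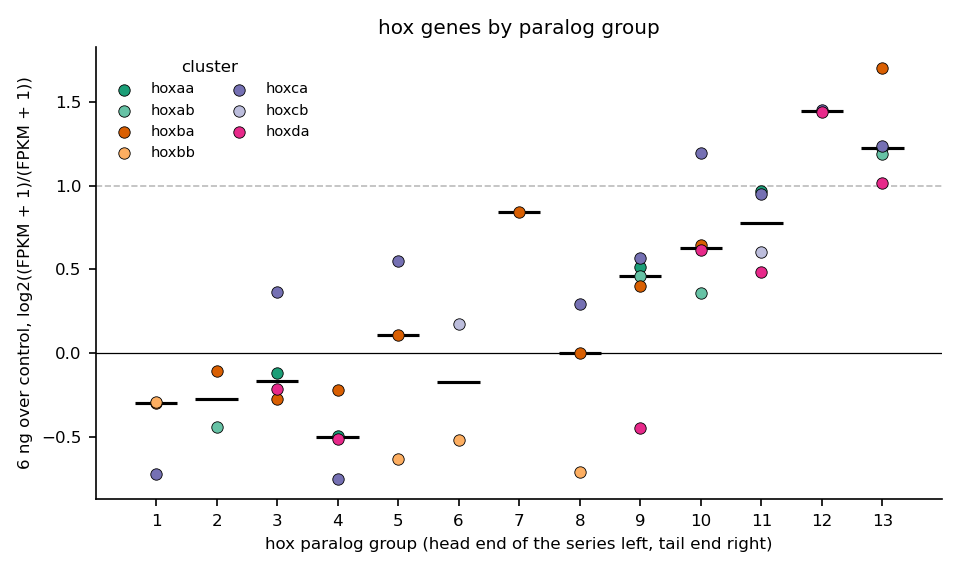
Difference of each hox gene between the 6 ng and control libraries (vertical axis, log2 ratio of FPKM + 1) by paralog group (horizontal axis), coloured by hox cluster, with a black bar at the median of each group. Points of groups 1 to 4 lie mostly below 0, and all 7 points of groups 12 and 13 lie above the dashed line at a difference of 1.

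Genes of the tailbud, where the last part of the trunk and the tail are formed, had 13 of 44 measured members higher and 2 lower (median 0.51). These are 29.5% and 4.55%, against 6.28% and 4.53% over all genes compared. Without the filter on low values the median was 0.30 over 59 genes. Some members of the list are the hox genes above. eve1, a posterior even-skipped homeobox gene, stood at 9.33 FPKM at 6 ng and 2.08 FPKM in the control. tbxta (Brachyury) stood at 52.7 FPKM at 6 ng and 19.3 FPKM in the control, and the ligand gene bmp2b at 17.9 FPKM at 6 ng and 6.19 FPKM in the control. The 2 lower members, sox3 and foxb1a, are also genes of the neural tube. sox3 stood at 51.1 FPKM at 6 ng and 128 FPKM in the control.

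Presomitic mesoderm genes went both ways within the list. Of 51 measured members, 16 were higher (31.4%) and 6 lower (11.8%), against 6.28% and 4.53% over all genes compared. mespbb, a transcription factor gene of the next somites to form, stood at 6.18 FPKM at 6 ng and 0.717 FPKM in the control, and the adhesion gene pcdh8 at 11.4 FPKM at 6 ng and 2.07 FPKM in the control. meox1, a homeobox gene of the somite listed with endothelial and connective tissue precursor genes, had a fold of 4.96 (4.53 to 5.44). All 6 lower members, nrarpb, her4.2, her15.1, her15.2, lfng and dld, are Notch pathway genes that the neural tube also uses. her15.1 and her15.2 are close copies, so the division of reads between them is uncertain.

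In the list of forebrain and hypothalamus regulators 23 of 63 measured members were lower and 0 higher (median -0.64). The lower share was 36.5%, against 4.53% over all genes compared. The paralogs otpa and otpb, needed for neuroendocrine neurons of the hypothalamus, stood at 0.963 and 0.330 FPKM at 6 ng, against 8.48 and 4.75 FPKM in the control. otpb had a fold of 0.0694 (0.0391 to 0.115). helt, a gene of GABA neuron precursors in the midbrain, stood at 0.620 FPKM at 6 ng and 3.96 FPKM in the control, and gbx1 at 1.54 FPKM at 6 ng and 6.16 FPKM in the control. Not all members followed. dlx5a, the most abundant of the list and also expressed in crest, placodes and fin fold, was above the control within 2-fold, with a fold of 1.89 (1.66 to 2.15), and six3b, a gene of the anterior forebrain and eye field, had a fold of 1.46 (1.29 to 1.65).

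At the midbrain-hindbrain boundary, an organiser that patterns both neighbours through Wnt and FGF signals, 10 of 35 measured members were lower and 0 higher. The 10 make up 28.6%, against 4.53% lower over all genes compared. The homeobox genes en2b and en2a stood at 0.687 and 1.80 FPKM at 6 ng, against 8.71 and 7.33 FPKM in the control. pax5 stood at 0.558 FPKM at 6 ng and 3.47 FPKM in the control, and otx2b, which marks the midbrain side, had a fold of 0.306 (0.246 to 0.378). In the 3 ng library en2b and en2a stood at 6.82 and 5.77 FPKM, nearer to the control, and pax5 stood at 1.41 FPKM. Among the most abundant members, the FGF feedback gene spry4 had a fold of 1.89 (1.72 to 2.07) and the Wnt secretion gene wls a fold of 1.07 (1.01 to 1.14).

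Among hindbrain segment genes 9 of 59 measured members were lower and 1 was higher (median -0.28). These are 15.3% and 1.69%, against 4.53% and 6.28% over all genes compared. tox3 stood at 1.87 FPKM at 6 ng and 9.26 FPKM in the control, and phox2a, a regulator of cranial motor and autonomic neurons, at 0.398 FPKM at 6 ng and 2.18 FPKM in the control. The higher member was mafbb, a relative of the rhombomere gene mafba, at 43.5 FPKM at 6 ng and 14.3 FPKM in the control. pbx1b, counted as lower and named after its value was seen, came from few fragments and its fold of 0.269 (0.00546 to 2.72) has an interval that holds 1.

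The spinal cord is divided from floor plate to roof plate into progenitor domains, each marked by its own transcription factors. Of 74 measured regulators of these domains and their neurons, 30 were lower and 1 was higher (median -0.72). These are 40.5% and 1.35%, against 4.53% and 6.28% over all genes compared. Next to the floor plate nkx2.2b stood at 0.406 FPKM at 6 ng and 4.32 FPKM in the control. olig2, of the motor neuron domain, had a fold of 0.0713 (0.0603 to 0.0837). In the middle of the cord the interneuron progenitor genes dbx1b and dbx1a had folds of 0.179 (0.133 to 0.236) and 0.182 (0.133 to 0.244). The dorsal genes gsx1 and ascl1b had folds of 0.140 (0.0931 to 0.204) and 0.227 (0.173 to 0.293).

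Lower members thus came from ventral, intermediate and dorsal domains alike. Toward the roof plate olig3, chosen for its domain after its value was seen, stood at 5.72 FPKM at 6 ng and 17.4 FPKM in the control. msx1b, a gene of the roof plate and dorsal midline, was above the control, at 51.2 FPKM at 6 ng and 31.1 FPKM in the control, within 2-fold. The 1 member higher, tal1, marks an interneuron type in the cord and is also a gene of blood and endothelial precursors. The tissue behind its value was not tested. Floor plate and notochord, the sources of Hedgehog ventrally, had 8 of 53 measured genes higher and 2 lower, and both lower members, nkx2.2b and nkx2.9, belong to the progenitors beside the floor plate.

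**Figure D3:**
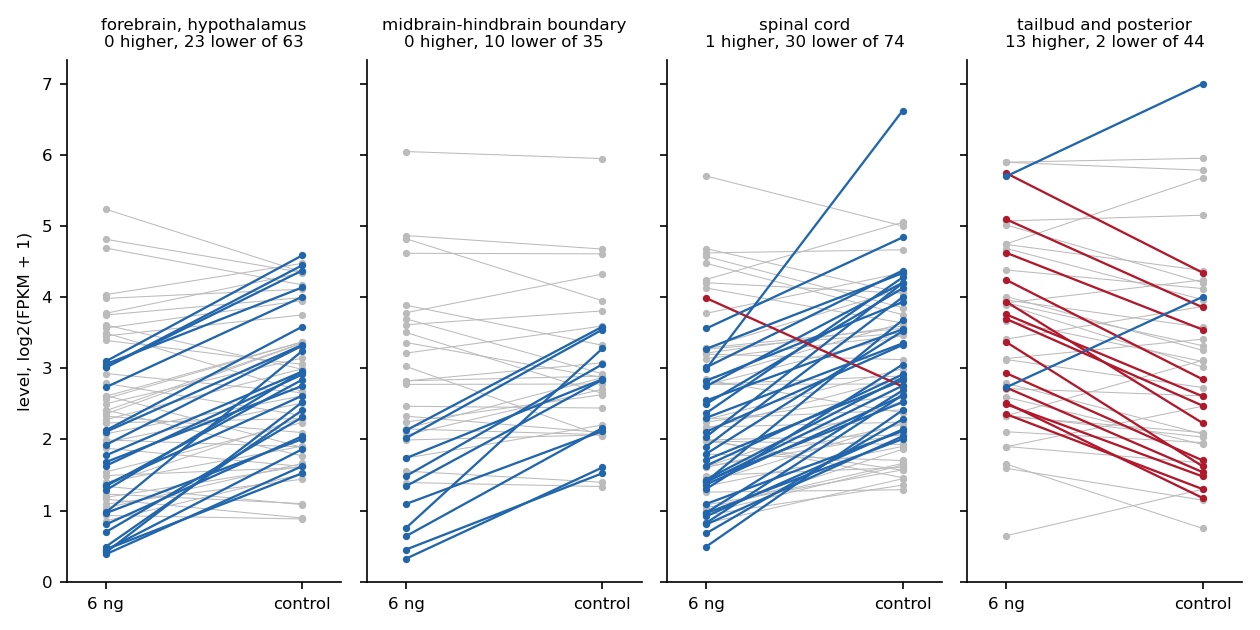
Level of each measured gene, log2(FPKM + 1), in the 6 ng library (left) and the control library (right) for 4 lists, 1 line per gene. Red lines are at least 2-fold higher at 6 ng, blue lines at least 2-fold lower and grey lines within 2-fold. Blue lines make up the coloured genes of the forebrain and boundary panels, all but 1 of those in the spinal cord panel and 2 of those in the tailbud panel.

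Genes of dividing neural progenitors had 38 of 76 measured members lower and 1 higher (median -0.99). The class III POU factors, which act in neural progenitors and their early daughters, were all lower. pou3f1 stood at 4.09 FPKM at 6 ng and 32.7 FPKM in the control, and pou3f2b at 3.00 FPKM at 6 ng and 22.2 FPKM in the control. pou3f3b stood at 7.50 FPKM at 6 ng and 42.9 FPKM in the control. All 5 genes of the class in the table, with pou3f2a and pou3f3a, were past 2-fold (median -2.37). In the 3 ng library pou3f1 stood at 10.8 FPKM and pou3f2b at 9.95 FPKM. The class was singled out after its values were seen. The higher member of the progenitor list was the Notch ligand gene jag2a, at 5.58 FPKM at 6 ng and 1.78 FPKM in the control, which is not used by neural progenitors alone.

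In the glia list 13 of 32 measured members were lower (40.6%) and 1 higher (3.12%), against 4.53% and 6.28% over all genes compared. The median was -0.60, or -0.42 over 41 genes without the filter on low values. plp1a, a myelin proteolipid gene, stood at 4.13 FPKM at 6 ng and 44.2 FPKM in the control, and its relative gpm6aa at 3.42 FPKM at 6 ng and 24.4 FPKM in the control. gfap, the intermediate filament of radial glia, stood at 26.3 FPKM at 6 ng and 92.2 FPKM in the control. Other members were above the control within 2-fold, among them apoeb with a fold of 1.44 (1.40 to 1.48) and glulb with a fold of 1.19 (1.13 to 1.25). Other tissues also express both genes. cldnk, a claudin of myelinating cells, was the higher member, at 8.11 FPKM at 6 ng and 1.07 FPKM in the control. It is also counted with the junction genes below, and the tissue behind its value was not tested.

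Of 78 measured genes of neuronal differentiation and synapses, 11 were lower and 0 higher (median -0.48). The lower share was 14.1%, against 4.53% over all genes compared. Without the filter on low values the median was -0.30 over 97 genes. scrt1a, a zinc finger gene of newly born neurons, stood at 0.803 FPKM at 6 ng and 6.36 FPKM in the control, and neurod4 at 7.39 FPKM at 6 ng and 29.2 FPKM in the control. Structural genes of the list lay closer to the control, such as tubb5 with a fold of 0.546 (0.521 to 0.573) and tuba1a with a fold of 0.690 (0.657 to 0.724). 20 of 42 transmitter identity genes passed the filter, 18 of them below the control, and 3 were lower. Those were the glycine transporter gene slc6a5, the enkephalin gene penka and the GABA synthesis gene gad2. They stood at 1.02, 1.18 and 0.565 FPKM at 6 ng, against 3.60, 3.82 and 2.31 FPKM in the control. A gene low at 6 ng can pass the filter through the other libraries. The median was -0.74 over the 20 transmitter genes that passed and -0.22 over all 42 in the table.

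RNA-binding proteins also shape splicing by cell type. Of 33 measured splicing regulators of neurons and muscle, 7 were lower and 0 higher (median -0.32). nova1 and nova2, which direct splicing of synaptic transcripts, had folds of 0.208 (0.157 to 0.272) and 0.271 (0.255 to 0.287). celf4 had a fold of 0.191 (0.107 to 0.321), and msi1b, a Musashi gene of neural progenitors, a fold of 0.339 (0.311 to 0.369). The muscle regulator rbfox1l, by contrast, lay at 192 FPKM at 6 ng and 172 FPKM in the control. Among 56 measured SR proteins and core spliceosome genes 0 passed 2-fold in either direction (median -0.06). The hnRNP list had 27 of 31 measured members below the control and a median of -0.36, with hnrnpul1l lower and hnrnpd higher past 2-fold. These are 3.23% in each direction, under the 4.53% lower and 6.28% higher over all genes compared.

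Surface molecules that guide axons or hold neural cells together had 14 of 89 measured members lower and 1 higher. prtgb (protogenin) had a fold of 0.130 (0.109 to 0.155), and the neural cell adhesion genes ncam1b and ncam1a had folds of 0.139 (0.112 to 0.170) and 0.300 (0.251 to 0.358). The most abundant member, alcamb, was above the control within 2-fold, with a fold of 1.32 (1.27 to 1.38), and cdh2 (N-cadherin) lay at 63.7 FPKM at 6 ng and 83.4 FPKM in the control. Genes of cranial placodes and sensory neurons, which arise outside the neural tube, had a median of -0.01 with 5 of 57 lower and 0 higher. The lower share was 8.77%, against 4.53% over all genes compared. The 5 were neurod4, neurog1, phox2a, ebf2 and phox2bb, and all but the phox2 genes are also in the lists of neural progenitors or neuronal differentiation.

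In the eye, 14 of 49 measured retina and eye field genes were lower and 1 higher, and 17 of 27 measured lens genes were lower and 0 higher. The table holds 62 lens genes, and a gene low at 6 ng can pass the filter through the other libraries, so the median was -1.78 over those that passed and -0.34 over all 62. nr2f1b stood at 3.49 FPKM at 6 ng and 17.1 FPKM in the control, and its relatives nr2f1a and nr2f2 had folds of 0.412 (0.379 to 0.446) and 0.477 (0.448 to 0.507). Outside the crystallins, mipb and lim2.1, named after their values were seen, stood at 0 and 2.03 FPKM at 6 ng, against 3.24 and 10.6 FPKM in the control. dlx3b, a gene of the placodes that precede the lens, was by contrast above the control, with a difference of 0.98 on the log2 scale, just inside the limit. The alpha crystallin genes cryaa, cryaba and cryabb did not pass the filter on low values.

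Pigment cells of the skin come from the neural crest, while the pigmented layer of the retina does not. The melanin values below were not divided between them. Genes that specify the crest had a median of 0.03, with 2 of 55 measured members higher (snai1b and ednrab) and 5 lower. These are 3.64% and 9.09%, against 6.28% and 4.53% over all genes compared. Of 30 melanin and melanosome genes, 9 were lower and 0 higher, including tyr, the enzyme of the first step, at 5.68 FPKM at 6 ng and 18.9 FPKM in the control and the melanosome ion exchanger gene slc24a5 at 0.516 FPKM at 6 ng and 4.45 FPKM in the control. Of 38 genes of pteridine and purine pigments, 9 were lower and 1 was higher. That 1 was tfec, a transcription factor of early pigment precursors, at 14.7 FPKM at 6 ng and 5.83 FPKM in the control. The 5 lower crest genes were barx1, cdh7a, dlx1a, pax7a and cdh11, of which barx1, a gene of the pharyngeal arches, stood at 0.361 FPKM at 6 ng and 3.59 FPKM in the control.

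Among 29 measured genes of blood progenitors and thrombocytes 7 were higher and 0 lower, although the median was 0.01. lmo2 and tal1, partners in the complex that specifies blood, stood at 22.6 and 14.9 FPKM at 6 ng, against 8.01 and 5.71 FPKM in the control, and etv2, which specifies endothelial and blood precursors, had a fold of 2.38 (2.05 to 2.78). Endothelial genes had 5 of 60 members higher and 4 lower (median 0.05). These are 8.33% and 6.67%, near the 6.28% and 4.53% over all genes compared. The 4 lower ones were s1pr1, aqp1a.1, robo4 and cldn5a. s1pr1 stood at 4.89 FPKM at 6 ng and 24.9 FPKM in the control. Heart genes had 0 of 46 members higher and 1 lower, the myosin light chain gene myl7, with a fold of 0.385 (0.293 to 0.502).

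Of 48 measured erythroid and heme genes 13 were higher and 1 lower (median 0.41). epb41b, a red cell membrane skeleton gene, stood at 9.31 FPKM at 6 ng and 2.56 FPKM in the control, and the death receptor family gene hdr at 26.2 FPKM at 6 ng and 8.28 FPKM in the control. 6 of the 13 encode enzymes of heme synthesis (alas2, hmbsb, urod, cpox, ppox and fech), a grouping made after their values were seen. urod, the most abundant of these 6, had a fold of 2.09 (1.91 to 2.29). The lower member was aqp1a.1, a water channel gene that vessels also express. Skeletal muscle had 13 of 118 members lower and 5 higher. The higher share was 4.24%, below the 6.28% over all genes compared. The lower share was above the 4.53% over all genes compared. Of the 6 farthest below, 3 act in coupling excitation to calcium release, a grouping made after their values were seen. cacna1sa, the voltage sensor, stood at 0.640 FPKM at 6 ng and 4.23 FPKM in the control, and the release channel genes ryr1a and ryr3 had folds of 0.297 (0.266 to 0.332) and 0.360 (0.329 to 0.394). The regulator myog, which starts muscle differentiation, was higher, with a fold of 2.80 (2.49 to 3.16).

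The embryonic skin was measured by 74 genes of epidermis, periderm and keratins, of which 10 were higher and 1 was lower (median 0.51), and 64 were above the control. krt8, a keratin of simple epithelia, stood at 1057 FPKM at 6 ng and 350 FPKM in the control. krt4, the most abundant member, stood at 9187 FPKM at 6 ng and 6933 FPKM in the control. foxi1 had a fold of 4.09 (3.29 to 5.12). The lower member was krtt1c19e, a keratin of the basal layer, at 30.1 FPKM at 6 ng and 122 FPKM in the control. The list of integrins, cadherins and junctions had 9 of 73 measured members higher (12.3%) and 4 lower (5.48%). Over all genes compared the shares were 6.28% and 4.53%. Claudins, which seal epithelia at tight junctions, made up 7 of the 9 higher members, led by cldng and cldnk. cldne, the most abundant of these, stood at 178 FPKM at 6 ng and 70.8 FPKM in the control, while cldn19 was lower, at 0.203 FPKM at 6 ng and 4.56 FPKM in the control.

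Matrix genes went both ways. Collagen chains had 3 of 39 measured members higher (7.69%) and 6 lower (15.4%), against 6.28% and 4.53% over all genes. Their median was -0.20, or 0.05 with a filter at a mean of 5 FPKM. Among the lower ones were 3 type VI chains, col6a4a with a fold of 0.240 (0.203 to 0.283), col6a1 and col6a2, the last with a fold of 0.336 (0.289 to 0.391). The type I chain genes col1a2 and col1a1b stood at 91.9 and 81.4 FPKM at 6 ng, against 207 and 180 FPKM in the control. The third type I chain gene, col1a1a, lay at 349 FPKM at 6 ng and 320 FPKM in the control, so the chains of this collagen did not move together. col2a1a, the collagen of the notochord sheath, had a fold of 1.77 (1.74 to 1.79). The genes that follow act in collagen maturation and were grouped after their values were seen. serpinh1b, the collagen chaperone, stood at 312 FPKM at 6 ng and 19.6 FPKM in the control, its paralog serpinh1a had a fold of 3.52 (3.33 to 3.72), and the prolyl hydroxylase genes p4ha2 and p4ha1b had folds of 2.89 (2.56 to 3.27) and 2.53 (2.22 to 2.88).

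Genes of proliferation were mostly below the control. Of 74 measured genes of DNA replication and S phase, 21 were lower (28.4%) and 0 higher, with 72 below the control. Of 93 mitosis genes 7 were lower (7.53%) and 0 higher, with 83 below the control. Over all genes compared 4.53% were lower, and 7221 of 16429 were below the control. Enzymes that make nucleotides had 6 of 33 members lower and 0 higher. dhfr, which regenerates tetrahydrofolate, stood at 10.6 FPKM at 6 ng and 24.0 FPKM in the control, and the pyrimidine synthesis gene cad at 35.7 FPKM at 6 ng and 77.4 FPKM in the control. From the list of cyclins and CDK inhibitors given above, cdkn1ba, which encodes a p27 protein, had a fold of 2.23 (1.97 to 2.52), and rbl2, a relative of the retinoblastoma gene, stood at 16.1 FPKM at 6 ng and 1.56 FPKM in the control. cdkn2a/b stood at 9.87 FPKM at 6 ng and 0.173 FPKM in the control, from 53 fragments and 1 fragment, so its fold of 57.0 has a wide interval (9.80 to 2295).

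Chromatin genes had 76 of 90 measured members below the control, 7 lower and 0 higher (median -0.37). The 7 make up 7.78%, against 4.53% lower over all genes compared. The lower ones include 4 genes of abundant high mobility group proteins, which bend or loosen chromatin. hmgn2 stood at 423 FPKM at 6 ng and 1434 FPKM in the control, and hmgb3a at 84.4 FPKM at 6 ng and 312 FPKM in the control. hmgb1b and hmgb1a had folds of 0.303 (0.285 to 0.321) and 0.313 (0.295 to 0.332). dnmt1, which copies DNA methylation after replication, stood at 20.8 FPKM at 6 ng and 51.0 FPKM in the control. The most abundant member, hmga1a, lay below the control within 2-fold, with a fold of 0.541 (0.535 to 0.548).

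In the BMP and TGF-beta list 5 of 74 measured members were higher (bmp2b, nog2, fsta, fstb and fstl1a) and 0 lower, a higher share near the 6.28% over all genes. fsta (follistatin), which binds activin, stood at 62.4 FPKM at 6 ng and 11.9 FPKM in the control, and fstb at 21.8 FPKM at 6 ng and 9.11 FPKM in the control. The noggin gene nog2 had a fold of 2.86 (2.43 to 3.37). id1, a target gene of BMP signalling, lay at 94.4 FPKM at 6 ng and 87.8 FPKM in the control. The Wnt list, with 4 of 86 members higher and 5 lower, was also near the shares over all genes. The antagonist gene dkk1b stood at 22.1 FPKM at 6 ng and 4.95 FPKM in the control, and the receptor gene fzd9b at 2.89 FPKM at 6 ng and 13.7 FPKM in the control. Notch genes had 19 of 65 members lower and 3 higher (her7, her1 and jag2a), and genes of the retinoic acid pathway had 6 of 46 lower and 1 higher, the binding protein gene crabp2b with a fold of 3.54 (3.23 to 3.90).

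Several large housekeeping groups had few or no members past 2-fold. All 81 measured cytosolic ribosomal protein genes, all 40 proteasome genes, all 47 translation factor genes and all 23 aminoacyl-tRNA synthetase genes lay within 2-fold of the control. Their medians were -0.08 for ribosomal proteins, 0.25 for the proteasome, 0.02 for translation factors and 0.17 for the synthetases, and with genes of like length centred -0.24, 0.09, -0.11 and 0.05 in the same order. Nuclear genes of oxidative phosphorylation had 1 of 75 members higher and 1 lower, and their median of 0.13 became -0.05 when genes of like length were centred. Ribosome biogenesis genes had 61 of 71 members above the control (median 0.32) and 3 higher (dnttip2, imp3 and rsl1d1). The shares past 2-fold, 4.23% higher and 1.41% lower, were under the 6.28% and 4.53% over all genes compared. The 1 lower member was ubtf, a factor for transcription of ribosomal RNA genes, at 29.2 FPKM at 6 ng and 60.6 FPKM in the control.

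The difference between the libraries also moved with gene length, as inferred from the FPKM values. Among the tenth of genes with the shortest models, 38 to 805 bases, 16.5% were higher and 7.97% lower (median 0.19). Among the tenth with the longest, 5825 to 54863 bases, 1.22% were higher and 3.65% lower (median -0.11). The 3 ng library had medians of 0.18 and -0.15 in these groups against the same control. The part of gene length in the differences of single genes was not tested. Of 384 genes past 2-fold that the naming rule and the lists cover, 352 were still past it with genes of like length centred. These 384 were picked in part for their large differences. None changed direction, but centring moves a gene by far less than 2-fold, so hardly any could. Over all genes compared, the higher count went from 1032 to 781 and the lower count from 745 to 904.

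**Figure D4:**
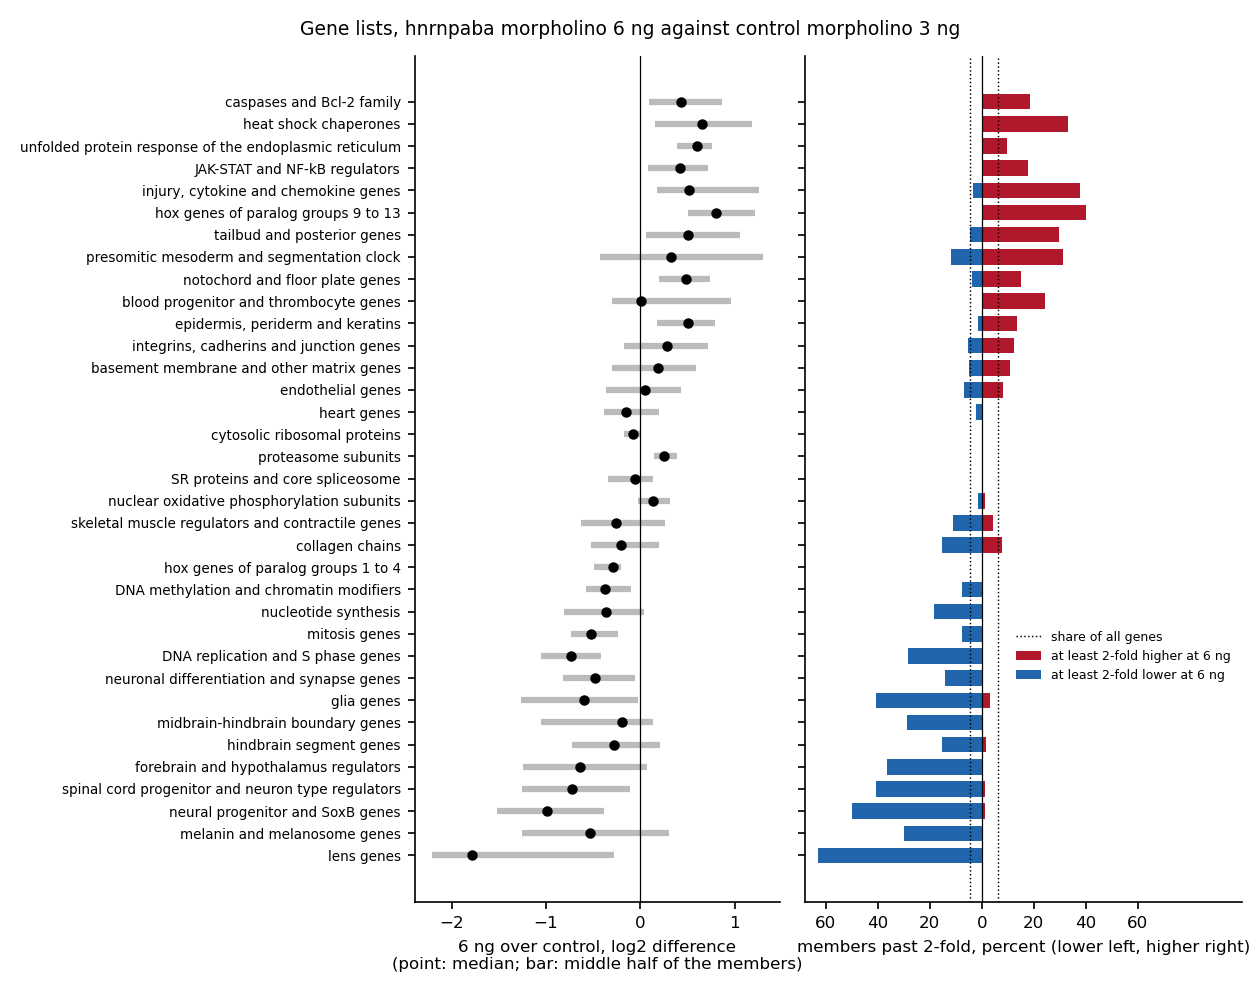
Gene lists compared between the 6 ng and control libraries. Left, median difference of the measured members (point) and their interquartile range (bar) on the log2 scale of FPKM + 1. Right, percent of members at least 2-fold higher (red, to the right) and at least 2-fold lower (blue, to the left), with dotted lines at 6.28% and 4.53%, the shares over all genes compared. Among the lists drawn, those of heat shock, the unfolded protein response, hox groups 9 to 13 and epidermis have medians above 0, those of neural progenitors, spinal cord, lens and DNA replication have medians below 0, and the ribosomal protein, proteasome and spliceosome lists have no red or blue bar.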

How the data were processed

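The authors deposited 1 table of FPKM per gene for 3 RNA-seq libraries, which also gives gene position. Per the labels, each library came from 30 pooled embryos. For RNA selection, strandedness, aligner and build, nothing was given in the sources used here. Antisense, overlapping and near-identical genes are therefore uncertain. Library totals, gene model lengths and fragments were inferred from the spacing of low FPKM values. The totals were 13557636 at 6 ng, 14589056 in the control and 17748075 at 3 ng. Fragments over all genes came to 93.9%, 94.3% and 94.1% of these totals. Each length is the shortest, up to the span of the gene, that makes the fragments of all 3 libraries whole numbers. Fragment counts, intervals and length groups rest on these inferred lengths. Differences are log2 ratios with a pseudocount of 1 FPKM, over genes averaging 1 FPKM or more in the 3 libraries. Intervals are exact (Clopper-Pearson, 95%) and cover counting error only. Scripts (Python 3.11.15, numpy 2.4.6, pandas 2.3.3, scipy 1.17.1) were tested on simulated data.

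Members and gene lists were chosen with earlier results of these data known. Of 4344 symbols in 87 lists, 4100 matched the table. Named genes are hnrnpaba and hnrnpabb, the 15 highest and 15 lowest genes with a symbol, and, per list, up to 6 members past 2-fold in each direction, up to 3 with the highest mean FPKM, and any member past 2-fold where 5 or fewer were. Some others are marked as named after their values were seen. Genes named as below the filter also fall outside this rule and carry no mark. A planned promoter motif search was not run, as no sequence was used here. 1 gene and a list built on it are not reported here.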

Additional observations from a re-analysis of the deposited data

How the results depend on the processing

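With 1 library a side, these settings show how far the values depend on processing and not how they would vary between embryo pools. Against 1032 higher and 745 lower genes, a pseudocount of 0.1 FPKM gave 1615 higher and 1171 lower, a pseudocount of 5 FPKM gave 313 and 215, and a filter at a mean of 5 FPKM gave 540 and 391 among 9688 genes. Without a filter 1186 were higher and 839 lower, and a filter on the 2 libraries compared gave 1034 and 760. Rescaling to equal FPKM sums gave 957 and 795, rescaling by the median ratio 852 and 875, and centring genes of like length 781 and 904. Of 384 listed or top-ranked genes past 2-fold, 203 remained past it with a pseudocount of 5 FPKM and 377 with equal sums. With the median ratio 362 remained, and with length centred 352. In these settings 0 reversed, but they can hardly turn the direction of a difference past 2-fold. Of 87 list medians, 6 changed sign with the filter at 5 FPKM, 5 with equal sums, 12 with the median ratio and 11 with length centred. Those medians were small as reported, at most 0.20, 0.02, 0.05 and 0.13 in size in these settings. One was that of nuclear oxidative phosphorylation subunits, -0.05 with length centred. Depth limits genes of low level, as 257 of the higher genes had under 10 control fragments. The causes of these shifts were not tested. No paired analysis was possible because each group has 1 library.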

Other observations

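The families below were chosen after their values were seen and are given as values. Histone genes clustered on chromosomes 7 and 25 supply histones mainly during DNA replication. 26 of 30 such genes passed the filter, and 20 were at least 2-fold higher at 6 ng and 0 lower, with a median of 1.46 over all 30. Over all genes compared 6.28% were higher, and 16.5% among the tenth with the shortest models. The measured members had a median of 0.260 FPKM in the control, so many passed the filter through the hnrnpaba morpholino libraries. Together the 30 genes had 631 fragments at 6 ng and 151 in the control. That is 46.5 and 10.4 per 1000000 fragments, while the 3 ng library had 32.7. Their gene models are short, with a median of 387 bases, and near-identical copies leave the values of single members uncertain. These transcripts normally lack a poly(A) tail, and how RNA was selected is unknown here.

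Zona pellucida genes, which encode the egg coat, had 12 of 14 measured members at least 2-fold higher at 6 ng and 0 lower. Over all genes compared 6.28% were higher. The measured members had a median of 0.811 FPKM in the control, so many passed the filter through the hnrnpaba morpholino libraries. The median difference was 1.14 over the 14 and 1.07 over all 20 in the table. The 20 genes of this family in the table together gave 89.4 per 1000000 fragments at 6 ng and 22.8 in the control. The 3 ng library gave 143. Hairy-related her genes, mostly Notch targets, had 9 of 17 members lower and 2 higher, and sox genes had 8 of 22 lower and 0 higher. Claudin genes had 8 of 26 higher and 3 lower.

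The precursors of the neuronal microRNA miR-124 had 10 fragments at 6 ng and 41 in the control over 3 genes. These values are too few for single precursors. By chromosome, the share of genes at least 2-fold higher was 12.2% on chromosome 25 (66 of 541 genes), 11.3% on chromosome 22 (71 of 630) and 9.28% on chromosome 7 (79 of 851), against 6.28% over all genes. These chromosomes were picked because they ranked highest by that share. The clustered histone genes above lie on chromosomes 7 and 25, so those that were higher count in these shares as well.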
